A study of Mus musculus with 8 samples.

Results

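The loci described here are transcribed loci that the authors assembled from RNA-sequencing reads of mouse embryonic stem cells and that lie within 10 kb of a MERVL element. A locus was taken when its span, in build mm9, overlapped a MERVL-int or MERVL_2A-int entry of the deposited repeat table or ended no more than 10 kb from one, with random scaffolds left out. Counted once in every library that held them, these were 1719 of 177841 loci (0.967%), of which 757 overlapped an element and 962 lay beside one. The repeat table gave 582 MERVL-int and 16 MERVL_2A-int entries off the random scaffolds. These 598 elements spanned 5005 to 5667 bp, and no entry of any family in the table was shorter than 5001 bp, so solitary LTRs and short MERVL fragments took no part in the choice. At least 1 library held a locus within 10 kb of 248 of the 598 elements. The 5 loci just inside the limit lay 9917 to 9984 bp from their element at 0.571 to 10.7 FPKM, and the 5 just outside it lay 10053 to 10091 bp away at 0.629 to 16 FPKM. FPKM is the number of fragments per kilobase of transcript and per M mapped fragments, with M for mega.

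MERVL is a family of endogenous retroviruses of the mouse whose internal sequence is flanked by LTRs that serve as its promoters. Its RNA is abundant in the early embryo at the time of the first burst of zygotic transcription, and in a small share of cultured embryonic stem cells that pass through a like state. Transcripts that start in these LTRs can run into adjoining sequence and into genes, so the ground beside an element can be transcribed together with it. DAXX is a histone chaperone that works with ATRX, and DNA methyltransferases put the methyl marks on DNA that help to hold endogenous retroviruses silent.

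The libraries came from J1, a mouse embryonic stem cell line, and from TKO, which lacks 3 DNA methyltransferases (DNMTs), each with DAXX intact or knocked out. Every one of these 4 lines was sequenced once from regular embryonic stem cell medium and once after 72 h with 2i plus vitamin C. That medium held 1 µM of PD0325901, a MEK inhibitor, 3 µM of CHIR99021, a GSK3b inhibitor, and 100 µg/ml of vitamin C. Libraries are named below by line and medium, with "2i" standing for 2i plus vitamin C. The genotype label of the J1 DAXX-knockout libraries reads WT, and their knockout is given by the title and the description. There was 1 library in each of the 8 groups, so a factor was compared over 4 pairs, each of 2 libraries alike in the other factors. Whether a knockout line is 1 clone is not given in the labels, and the files pair no gene names with the loci, so the knockouts and the cell type were not checked on their genes here. The 3 comparisons use the same 8 libraries and are not independent of one another.

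The read total behind a library, worked out from its repeat counts and RPKM, was lowest for J1 2i at 67.4 M and highest for TKO regular at 99.1 M. TKO regular stood apart in having the highest total, the most loci (23892, against 20133 to 23561 in the others) and the largest share of loci under 1 FPKM (30.0%, against 13.8% to 24.6%). J1 2i had the lowest of these shares. Because the deposited FPKM carry no read counts, the counting error of a single locus is known only where the authors' confidence bounds are quoted. In bulk cultures, a change in the number of cells that express an element and a change of its RNA in each cell cannot be told apart.

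Loci that overlapped MERVL were mostly long spans that took in a whole element. J1 had 86 in regular medium and 87 in 2i, and J1 DAXX-knockout had 96 and 88. TKO had 101 in regular medium and 95 in 2i, and TKO DAXX-knockout had 96 and 108. The 8 numbers thus lay close together, with the TKO libraries at or above their J1 counterparts. Their median span was 93948.5 to 106957 bp over the libraries, against 5312 to 7909 bp for all loci. Between 80 and 104 of them in a library contained their element from end to end. Only 1 to 7 in a library were up to 5 kb long. The files give the outer bounds of a locus and not its exons, so whether the element lies in an exon or an intron of these loci was not analysed here.

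The number of overlapping loci differed little by factor. DAXX knockout changed it by a mean log2 ratio of 0.07 ± 0.12 (SD over 4 pairs), DNMT knockout by 0.16 ± 0.13 and 2i by −0.0068 ± 0.13. The exact sign-flip permutation tests over the 4 pairs, two-sided, gave p = 0.375, 0.25 and 1, where the smallest p that 4 pairs allow is 2 of 16 arrangements, or 0.13. The sign of the value for 2i turned to 0.065 when loci under 1 FPKM were left out. The median overlapping locus in regular medium had 5.84 FPKM for J1, 5.49 for its DAXX knockout, 5.70 for TKO and 5.64 for its DAXX knockout. In 2i the medians were 7.91, 7.24, 7.04 and 6.58 FPKM in the same order of lines. All 4 of these medians in 2i lay above all 4 in regular medium. The medians over all loci, 2.81 to 4.40 FPKM in regular medium and 3.71 to 4.42 in 2i, overlapped. Loci overlapping IAPEz-int, another endogenous retrovirus, or L1Md_T, a young LINE1 family, also had higher medians in 2i, except in J1 DAXX-knockout. For J1 they rose from 3.78 to 5.21 FPKM and from 3.40 to 4.91. For J1 DAXX-knockout they fell from 4.99 to 4.28 and from 3.59 to 3.37. A higher median in 2i was thus not particular to MERVL. MERVL reads fell with 2i in 3 of the 4 lines: they made up 9303, 6495, 14566 and 1654 reads per M of the library total (RPM) in regular medium and 914, 1866, 2758 and 1784 RPM in 2i, in the same order of lines. TKO DAXX-knockout, low in both media, was the exception. The level of the long spans around MERVL and the reads in MERVL itself therefore did not go up and down together across the libraries.

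**Figure D1:**
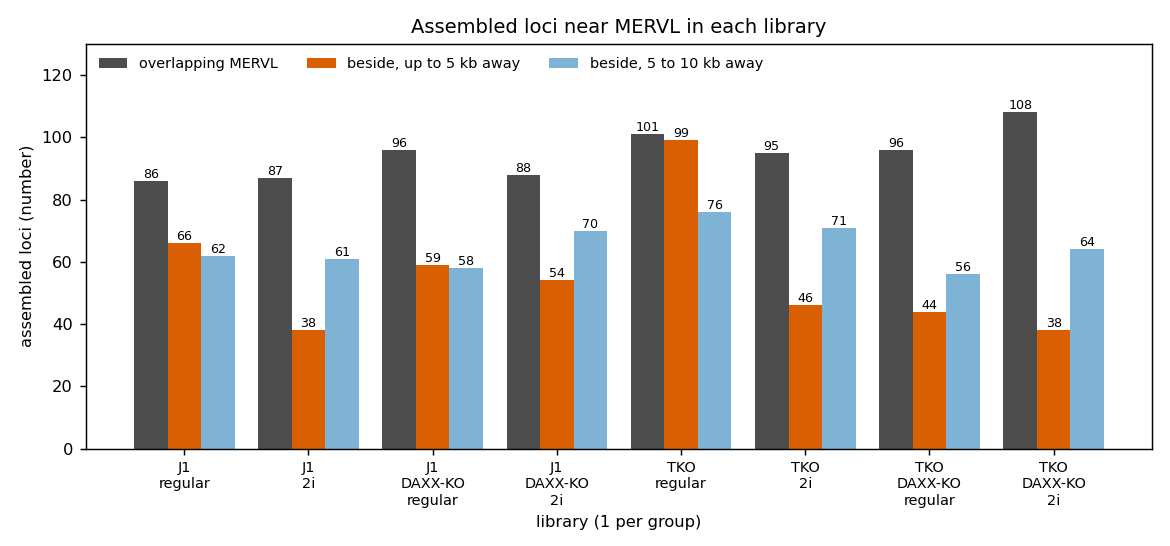
Number of assembled loci near MERVL (y axis) in each of the 8 libraries (x axis, 1 library per group). Bars stand for loci that overlap an element (86 to 108), lie beside it up to 5 kb away (38 to 99) or lie 5 to 10 kb away (56 to 76), and the middle bar varies most.

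Loci beside MERVL varied more in number, and the variation lay close to the element. Within 5 kb of an element, and not touching it, there were 66 loci in J1 regular and 38 in J1 2i. J1 DAXX-knockout had 59 in regular medium and 54 in 2i. TKO had 99 in regular medium and 46 in 2i. TKO DAXX-knockout had 44 in regular medium and 38 in 2i. The highest number was in TKO regular and the lowest in J1 2i and TKO DAXX-knockout 2i, and in each of the 4 lines the 2i library had fewer. Between 5 and 10 kb away the libraries had 56 to 76 loci, and between 10 and 20 kb away 90 to 133. Over the whole 10 kb, J1 had 128 loci beside MERVL in regular medium and 99 in 2i, and its DAXX knockout 117 and 124. TKO had 175 and 117, and its DAXX knockout 100 and 102. The division at 5 kb was chosen after the data were seen.

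The ratio of 2i to regular medium in the number of loci within 5 kb was 0.576 for J1 and 0.465 for TKO with DAXX intact, and 0.915 for J1 and 0.864 for TKO with DAXX knocked out. The mean log2 ratio was −0.56 ± 0.47 (SD over 4 pairs), lower in 4 of 4 pairs, with p = 0.13 in the exact sign-flip permutation test, the smallest p that this design allows. Between 5 and 10 kb it was 0.09 ± 0.17, lower in 2 of 4 pairs (exact p = 0.5). Over the whole 10 kb that defines the members it was −0.21 ± 0.32, lower in 2 of 4 pairs (exact p = 0.5). The same rule was applied to IAPEz-int, another endogenous retrovirus, and to L1Md_T, a young LINE1 family. Within 5 kb of IAPEz-int elements the number changed with 2i by a mean log2 ratio of 0.0098 ± 0.40, and MERVL lay below it in 4 of 4 pairs by 0.57 ± 0.21 on the log2 scale (exact p = 0.13). Within 5 kb of L1Md_T it changed by 0.10 ± 0.67, and MERVL lay below it in 4 of 4 pairs by 0.66 ± 0.52 (exact p = 0.13). Over the whole 10 kb, MERVL differed from IAPEz-int by −0.24 ± 0.20, lower in 4 of 4 pairs (exact p = 0.13). It differed from L1Md_T by −0.24 ± 0.26, lower in 3 of 4 pairs (exact p = 0.25). None of these p-values was adjusted, and none could fall below 0.13.

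In J1 and TKO with DAXX intact, most of this difference was in loci of low FPKM. Loci within 5 kb and under 1 FPKM numbered 23 against 1 for J1 in regular medium against 2i, and 22 against 12 for its DAXX knockout. For TKO they numbered 49 against 6, and for its DAXX knockout 9 against 8. Loci of at least 1 FPKM numbered 43 against 37 for J1, 50 against 40 for TKO, 37 against 42 for J1 DAXX-knockout and 35 against 30 for TKO DAXX-knockout, again regular medium against 2i. Among these better expressed loci the mean log2 ratio for 2i was −0.14 ± 0.22 (exact permutation p = 0.25). The libraries also differed in how many low loci they held anywhere in the genome. As a share of all loci under 1 FPKM of their library, those within 5 kb of MERVL made up 0.478% in J1 regular and 0.0307% in J1 2i, and 0.516% and 0.221% in the DAXX-knockout pair. For TKO the shares were 0.683% and 0.116%, and for its DAXX knockout 0.208% and 0.170%. The share was lower in 2i in 4 of 4 pairs (mean log2 ratio −2.01 ± 1.6, exact permutation p = 0.13). The J1 2i share behind that mean rests on 1 locus, and the TKO DAXX-knockout pair on 9 against 8. This measure was added after the data were seen. The part of sequencing depth in these numbers was not tested.

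**Figure D2:**
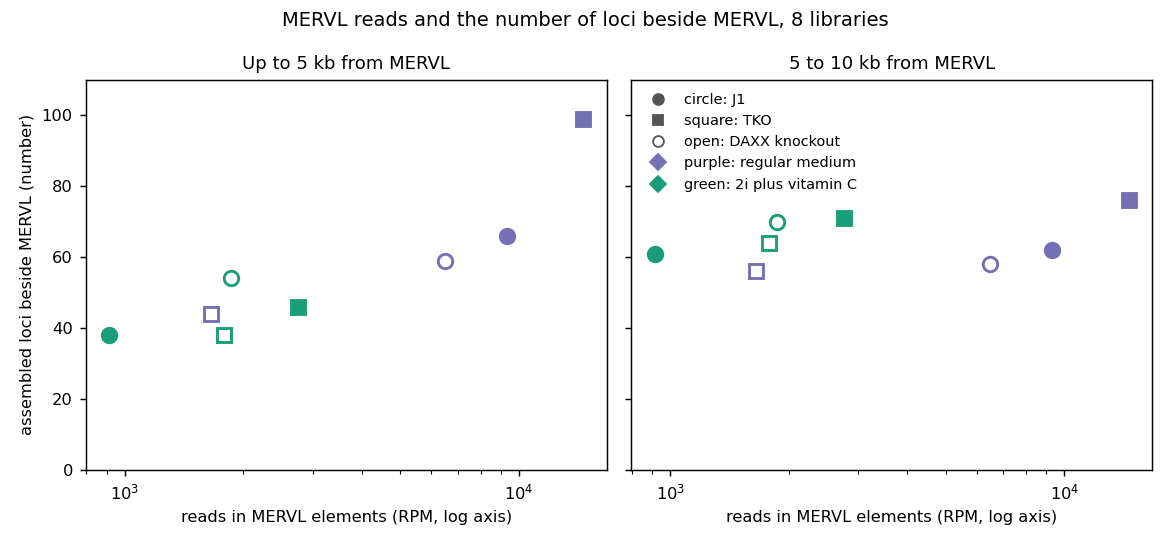
Reads in MERVL elements (x axis, RPM, log axis) and number of assembled loci beside MERVL (y axis) up to 5 kb away (left) and 5 to 10 kb away (right), 1 point per library. Within 5 kb the 3 libraries with 6495 RPM or more had 59, 66 and 99 loci and the other 5 had 38 to 54, while at 5 to 10 kb the points ranged over 56 to 76 on the right panel.

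The number of loci within 5 kb was highest where MERVL reads were highest. The 3 libraries with 6495 RPM of MERVL reads or more, TKO regular, J1 regular and J1 DAXX-knockout regular, had 99, 66 and 59 such loci in that order. The other 5 libraries, with 914 to 2758 RPM, had 38 to 54. TKO DAXX-knockout regular, the library in regular medium with the fewest MERVL reads, had 44 loci within 5 kb and fell among the 2i libraries on both measures. The plot of MERVL reads against loci shows this separation within 5 kb and a narrower spread of numbers from 5 to 10 kb. The points come from 4 lines in 2 media each, and TKO regular, the highest on both axes, also had the highest library total. The library total divided the numbers within 5 kb as well. Libraries with totals of 76.8 M or more had 54 to 99 such loci, and those with 67.4 to 76.2 M had 38 to 46. Whether the numbers followed MERVL reads or the library total was not tested. Elements with a locus beside them were read a little more than the rest in every library. In TKO regular the median element had 5.12 RPKM where a locus overlapped it, 5.01 RPKM where a locus lay within 5 kb and 4.79 RPKM elsewhere. In J1 2i the same medians were 0.375, 0.260 and 0.250 RPKM. They were 0.71, 0.65 and 0.56 RPKM in J1 DAXX-knockout 2i, and 0.595, 0.55 and 0.48 RPKM in TKO DAXX-knockout regular. How reads that map to several elements were placed is not given in the sources used here.

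For DAXX knockout the numbers within 5 kb moved in both directions. The knockout had 0.894 times the number of its parent line for J1 and 0.444 times for TKO in regular medium, and 1.42 and 0.826 times in 2i, with a mean log2 ratio of −0.28 ± 0.69 (exact permutation p = 0.625). The fall from 99 to 44 loci in TKO in regular medium was the largest of these 4 changes and rested on 1 library each side. Without TKO regular, or without TKO DAXX-knockout regular, the mean turned to 0.023. The fall was not particular to MERVL: within 5 kb of L1Md_T the same 2 libraries held 254 and 133 loci, a factor of 0.524. For IAPEz-int that factor was 0.947. Over the 4 pairs, the log2 ratio of MERVL differed from that of L1Md_T by −0.07 ± 0.17 and from that of IAPEz-int by −0.39 ± 0.57. The exact permutation p was 0.5 for each. For DNMT knockout the factor was 1.5 in regular medium and 1.21 in 2i with DAXX intact, and 0.746 and 0.704 with DAXX knocked out. The mean log2 ratio was −0.017 ± 0.53 (exact permutation p = 1), because the pairs with and without DAXX moved in opposite directions. The difference between those pairs was not tested. Over the whole 10 kb the mean log2 ratio was −0.20 ± 0.47 for DAXX knockout and 0.05 ± 0.36 for DNMT knockout (exact permutation p = 0.5 and 0.875).

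To ask which places were transcribed in which library, loci of all libraries that overlap were chained into 21880 merged regions, of which 310 lay near MERVL. Regions overlapping MERVL often held some locus in every library: 95 of 137 (69.3%) held a locus in all 8 libraries and 16 in 1 library only. Regions beside MERVL within 5 kb were shared less: 30 of 101 (29.7%) held a locus in all 8 libraries and 43 (42.6%) in 1 only. Of all merged regions, 49.1% held a locus in all 8 libraries and 22.3% in 1. A library counted here if any locus lay in the chained region, also one that did not meet the element. Counted by element, sharing was lower. Of 137 elements with an overlapping locus in any library, 60 had one in all 8 and 28 in 1 only. Of 101 elements with a locus beside them within 5 kb, 19 had one in all 8 and 41 in 1 only. Of the 43 single-library regions within 5 kb, 27 (62.8%) were found in TKO regular only, 4 each in J1 regular, J1 DAXX-knockout regular and J1 DAXX-knockout 2i, 3 in TKO 2i and 1 in TKO DAXX-knockout regular. TKO regular also held 32.7% of the single-library regions of the whole genome. The 27 TKO regular loci had a median of 0.644 FPKM and a median span of 970 bp, with ranges of 0.305 to 71.6 FPKM and 158 to 5457 bp. They were thus mostly short and of low FPKM.

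**Figure D3:**
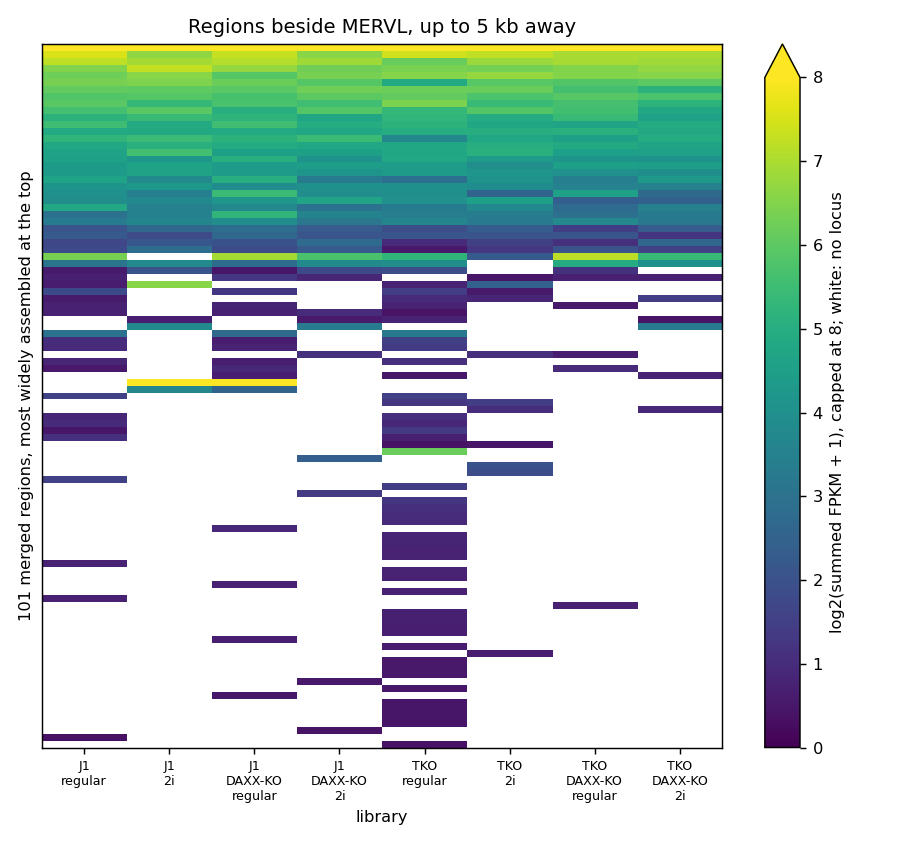
The 101 merged regions beside MERVL up to 5 kb away (rows, most widely assembled at the top) in the 8 libraries (columns), coloured by log2 of summed FPKM + 1, capped at 8, with white where no locus was assembled. The upper 30 rows are filled in all 8 libraries, and the long run of dark cells below them belongs mostly to TKO regular.

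Between paired libraries, regions within 5 kb came and went more often than regions at large in several pairs. Of the 82 regions within 5 kb that were assembled in TKO regular or TKO DAXX-knockout regular, 44 (53.7%) were found with DAXX intact alone, against 18.0% of all merged regions of that pair. The DAXX knockout alone held 4 (4.88%), against 8.50% of all. Of the 84 in TKO regular or TKO 2i, 42 (50%) were found in regular medium alone, against 17.3%, and 6 (7.14%) in 2i alone, against 10.2%. TKO regular thus held most of the regions that set these pairs apart. At 5 to 10 kb, TKO regular alone held 17 of 56 (30.4%) against TKO DAXX-knockout regular and 12 of 57 (21.1%) against TKO 2i. These shares were lower than within 5 kb but still above the 18.0% and 17.3% of all regions.

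In the other pairs by medium, the share within 5 kb found in regular medium alone was 20 of 57 for J1 (35.1%, against 10.2% of all regions) and 14 of 56 for J1 DAXX-knockout (25%, against 9.40%). For TKO DAXX-knockout it was 5 of 43 (11.6%, against 11.0%), about the background share. Regions found in 2i alone made up 7.02%, 12.5% and 11.6% in these 3 lines, against 12.7%, 16.1% and 11.3% of all regions. In the other pairs by DAXX the shares were nearer to the background. Regions within 5 kb found with DAXX intact alone were 11 of 60 for J1 in regular medium (18.3%, against 9.46%), 3 of 45 for J1 in 2i (6.67%, against 8.66%) and 8 of 46 for TKO in 2i (17.4%, against 11.5%). Those found in the DAXX knockout alone made up 11.7%, 17.8% and 8.7% in these 3 pairs, against 8.45%, 12.1% and 9.32%.

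In the pairs by DNMT, TKO held more regions of its own within 5 kb than J1 with DAXX intact and fewer with DAXX knocked out, a difference that was not tested. With DAXX intact, TKO alone held 31 of 84 in regular medium (36.9%, against 21% of all regions) and 11 of 48 in 2i (22.9%, against 13.5%), and J1 alone held 6 in each (7.14% and 12.5%, against 5.99% and 7.84%). With DAXX knocked out, TKO alone held 2 of 51 in regular medium (3.92%, against 15.5%) and 3 of 45 in 2i (6.67%, against 11.5%). There the J1 line alone held 13 (25.5%, against 8.91%) and 7 (15.6%, against 11.3%). TKO regular thus held the larger number against J1, and J1 DAXX-knockout regular the larger number against TKO DAXX-knockout. Regions overlapping MERVL changed less, but any locus in these mostly long regions counted. Over the 12 pairs, 1.68% to 10.2% of them were found in a given library of the pair and not in its partner. Of all merged regions 5.99% to 21% were, so the ranges overlapped.

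The sum of FPKM over loci beside MERVL was not a steady measure, because 1 very short locus made up a large part of it in 3 J1 libraries. J1 summed to 3417 in regular medium and 4280 in 2i, and its DAXX knockout to 3289 and 2724. TKO summed to 1630 in regular medium and 1622 in 2i, and its DAXX knockout to 1870 and 1305. All 4 J1 sums lay above all 4 TKO sums, with a mean log2 ratio for DNMT knockout of −1.09 ± 0.24 (exact permutation p = 0.13, lower in 4 of 4 pairs). A single locus of 118 to 122 bp made up 46.3%, 61.2% and 47.0% of the sum in the first 3 of these libraries. In J1 2i and J1 DAXX-knockout regular it was the same place, chr3:129165609-129165731, 1851 bp from a MERVL_2A-int element, at 2619 and 1547 FPKM. The authors' confidence bounds there were 1683 to 3554 and 711 to 2384 FPKM, and the other 6 libraries held no locus at that place. FPKM divides by the length of the transcript, so a few fragments on a locus this short can give a large value, and the fragments behind these values are not given. In J1 DAXX-knockout 2i, a locus of 9618 bp at 1021 FPKM made up 37.5% of the sum. In the 4 TKO libraries the highest locus made up 6.89% to 10.6% of it and spanned 1530 to 15333 bp. When loci under 300 bp were left out, a limit chosen after the data were seen, the J1 sums became 1802, 1550, 1708 and 2468 and the TKO sums 1536, 1577, 1764 and 1286, in the order above. The 2 ranges then overlapped, and the DNMT value became −0.28 ± 0.46 (exact permutation p = 0.5). The loci beside MERVL covered 2311.85 to 2896.17 kb in a library with a mean of 9.31 to 43.2 FPKM per locus. The loci overlapping MERVL summed to 896 to 1595 FPKM over 12233.1 to 17058.8 kb.

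**Figure D4:**
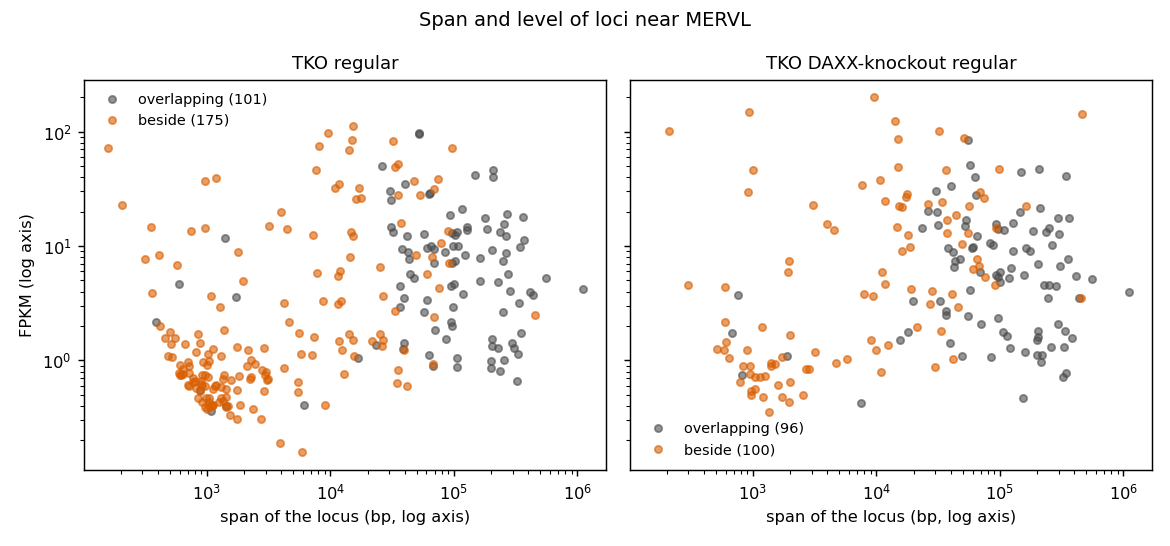
Span (x axis, bp, log axis) and FPKM (y axis, log axis) of each locus overlapping or beside MERVL in TKO regular (left, 101 and 175 loci) and TKO DAXX-knockout regular (right, 96 and 100 loci). The overlapping loci sit at long spans in both, and the cloud of short loci at about 1 FPKM or less beside MERVL is denser in TKO regular.

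Single loci show how differently members behaved. Among overlapping loci, the one with the steadiest high level lay in chr13:49748429-49832293 and contained a MERVL-int element at 49789657 to 49794944. J1 had 112 FPKM in regular medium and 125 in 2i there, and its DAXX knockout 89.4 and 119. TKO had 96.5 FPKM in regular medium and 104 in 2i, and its DAXX knockout 85.0 and 120. Each 2i library was higher than its partner in regular medium, by less than 1.5 times. An overlapping locus in chr8:127360812-127414220 ranged more widely, from 20.2 FPKM in TKO DAXX-knockout regular to 126 in J1 DAXX-knockout 2i. Its MERVL-int element lies at 127370545 to 127375871.

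Short loci that overlapped MERVL were few, and 1 of them was assembled in all 8 libraries, across the edge of its element in 6 and beside it in 2. At chr19:61250267-61251669 it reached into the element by 20 to 386 bp in the 6 and spanned 519 to 1402 bp there. For J1 it measured 8.50 FPKM in regular medium and 4.03 in 2i, and for its DAXX knockout 25.8 and 3.33. For TKO it measured 11.9 and 20.5 FPKM, and for its DAXX knockout 3.70 and 6.38. The highest values, in J1 DAXX-knockout regular and TKO 2i, were from the 2 libraries in which the locus stopped short of the element, by 62 and 123 bp, and in which it was shortest, at 435 and 375 bp. On chromosome 13, the element at 65778860 to 65784175 held short loci of 503 to 2256 bp inside it or across its edge in 5 libraries, at 1.02 to 4.69 FPKM, with the highest value in TKO regular. No such short locus was assembled there in the other 3.

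Beside MERVL, several well expressed loci were found in every library. A locus in chr5:122841901-122856003, 2652 bp from a MERVL-int element, measured 150 FPKM in J1 regular and 121 in J1 2i. For J1 DAXX-knockout the 2 values were 138 and 116 FPKM, for TKO 69.6 and 109, and for TKO DAXX-knockout 123 and 116. TKO regular was the lowest of the 8, where the low loci were most numerous. A locus in chr11:94490940-94521312, from 802 bp away, measured 140 and 91.5 FPKM for J1 and 101 and 76.9 for its DAXX knockout, in regular medium and 2i. For TKO it measured 112 and 114, and for its DAXX knockout 85.9 and 97.2. It was lower in 2i in the J1 lines and higher in TKO DAXX-knockout. In TKO the authors' bounds for the 2 media overlapped, at 107 to 117 and 109 to 120 FPKM. Summed over the 25 loci of the region, regular medium against 2i gave 186 and 99.9 FPKM for J1 and 157 and 93.8 for its DAXX knockout. The sums were 171 and 150 for TKO and 124 and 124 for its DAXX knockout.

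Other loci beside MERVL came and went. A locus of 921 to 1078 bp at chr7:26323915-26324999, 2850 bp from a MERVL-int element, was highest in regular medium with DAXX knocked out, at 147 FPKM for TKO and 121 for J1. It measured 80.7 in J1 regular, 51.5 in J1 DAXX-knockout 2i, 41.1 in TKO DAXX-knockout 2i, 36.7 in TKO regular and 3.80 in TKO 2i, and was not assembled in J1 2i. In each line the 2i library was the lower one, and in each medium and background the DAXX knockout was the higher one. The authors' bounds were wide, such as 67.8 to 227 FPKM for the highest value and 38.6 to 123 for J1 regular. This locus was chosen for its wide range, so these values are a description. At chrX:92755693-92756454, a locus 6353 bp from a MERVL-int element was assembled in 5 libraries, at 102 FPKM in TKO DAXX-knockout regular, 40.4 in J1 DAXX-knockout 2i, 22.9 in TKO regular, 2.73 in TKO 2i and 10.7 in TKO DAXX-knockout 2i. Its span was 206 to 761 bp.

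Some places held an overlapping locus in one library and a neighbouring one in another. Of the 137 regions that overlapped MERVL in at least 1 library, 27 were of this mixed kind. At chr2:131735677-131764143, with a MERVL-int element at 131746814 to 131752100, a locus that ended 1510 to 1512 bp from the element measured 47.5 FPKM in J1 regular, 86.1 in J1 2i, 98.1 in TKO regular, 1021 in J1 DAXX-knockout 2i and 199 in TKO DAXX-knockout regular. In J1 DAXX-knockout regular and TKO DAXX-knockout 2i the locus ran across the element, at 149 and 362 FPKM. In TKO 2i a short locus beside the element had 140 FPKM and a long one across it 3.49. The DAXX-knockout library was thus the higher one in all 4 pairs, with the bounds of the locus changing between libraries. The region was chosen for its high mean and wide range, so this is a description. The split into overlapping and beside depends on such bounds. A region on chromosome 4, chr4:146499347-146959370, chained 343 loci over 460023 bp, and the highest locus near MERVL in a library ranged from 26.4 FPKM in J1 DAXX-knockout 2i to 142 in TKO DAXX-knockout regular.

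Levels were tested on loci that matched 1 to 1 in all 8 libraries by a reciprocal overlap of at least 50%. These were 9718 loci in all and 100 near MERVL, 56 overlapping and 44 beside it. A matched locus was counted as overlapping if it met the element in at least 1 library: 44 of the 56 did so in all 8, and 12 in some only. Of the 1719 member loci, 754 (43.9%) entered through such a match, about as many as of all loci (43.7%). Matching took in 54.7% of overlapping loci and 35.4% of those beside MERVL within 5 kb, so the loci that came and went are not in this test. With a mean of at least 1 FPKM, 9657 loci were tested, 99 of them near MERVL. The test was limma on log2(FPKM + 1) with Benjamini-Hochberg adjustment over the 9657 loci. A fold on that scale understates the change of low loci. The p-values measure the spread between the pairs of single libraries, which may in part be technical.

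DAXX knockout changed the level of 0 of the 99 loci near MERVL at an adjusted p under 0.05 in limma, where 0.0104% of all tested loci passed. At an unadjusted p under 0.05 there were 5 of 99 (5.05%), against 702 of all loci (7.27%). The median log2 change was −0.05 near MERVL and −0.01 over all loci. DNMT knockout changed 0 of the 99 (0% of all loci), and the median log2 changes were 0.06 and 0.02. At an unadjusted p under 0.05 limma gave 23 of 99 (23.2%), against 1581 of all loci (16.4%). Overlapping loci had a median of 0.15, with 45 of 56 above 0 (0.13 and 36 of the 44 that overlapped in all 8 libraries), and loci beside MERVL a median of −0.14, with 14 of 43 above 0. Of all loci, 5012 of 9657 lay above 0. The difference of the DAXX effect between TKO and J1 was called at 0 of 99 (0% of all loci), with medians of 0.06 and 0.09. At an unadjusted p under 0.05 limma gave 3 of 99 (3.03%), against 547 of all loci (5.66%). On simulated data that test recovered 0 of 100 loci changed 4-fold, so a count of 0 says little there. For the other comparisons 86 to 90 of 100 were recovered at 4-fold and 46 to 56 of 100 at 2-fold. In each simulation the 100 loci of both sizes were changed at once, where the data gave 1 call for DAXX and 0 for DNMT knockout. The adjustment is stricter when fewer loci change, so these rates may be too high for a single changed locus.

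2i changed the level of 2 of the 99 loci near MERVL (2.02%), 1 higher and 1 lower, where 1.54% of all tested loci passed (0.932% higher and 0.611% lower). The share near MERVL was thus close to the share at large. At an unadjusted p under 0.05 limma gave 19 of 99 (19.2%), against 2381 of all loci (24.7%). Overlapping loci had a median log2 change of 0.20, with 40 of 56 above 0, against 0.04 over all loci. Those that overlapped in all 8 libraries had a median of 0.19, with 32 of 44 above 0. Loci beside MERVL had a median of −0.04, and the 21 within 5 kb a median of −0.09, with 7 above 0. Of these 21, 14 lay below 0 and 1 was called lower, at a log2 change of −1.32. Because all 8 libraries had to hold them, they cannot show how the level of loci that dropped out of assembly in 2i changed.

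**Figure D5:**
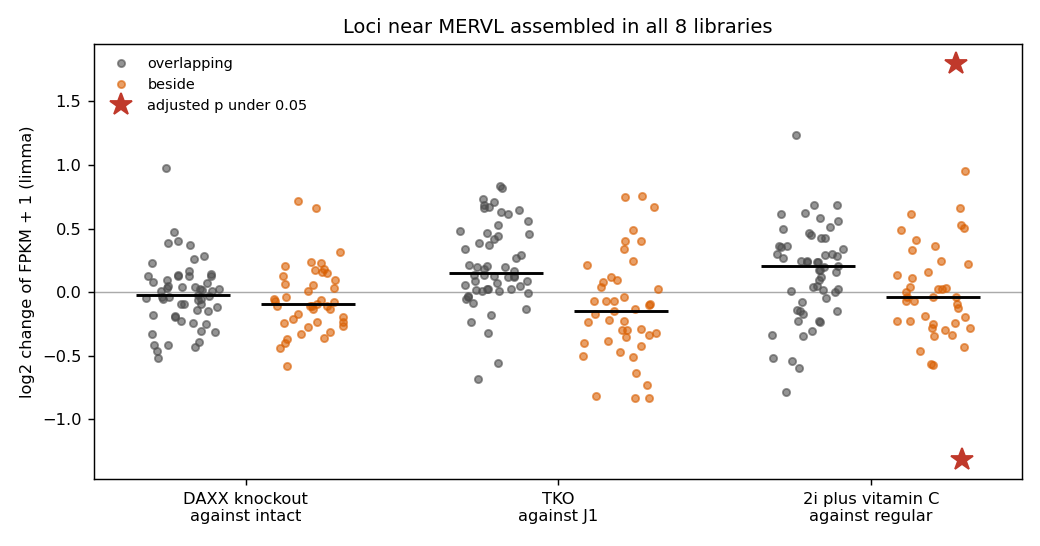
Log2 change of FPKM + 1 (y axis, limma) of the 99 matched loci near MERVL for DAXX knockout, DNMT knockout and 2i plus vitamin C (x axis), with overlapping loci in grey, loci beside in orange and medians as bars. Most points lie within 1 of 0, and the 2 stars in the last group are the loci that passed an adjusted p of 0.05, 1.80 and −1.32.

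The locus that rose lay at chr18:42035252-42111005, beside a MERVL element at 8897 bp. With DAXX intact it measured 4.64 FPKM for J1 and 4.32 for TKO in regular medium, and 26.5 and 23.7 in 2i. With DAXX knocked out it measured 4.71 for J1 and 5.39 for TKO in regular medium, and 9.65 and 21 in 2i. All 4 values in 2i lay above all 4 in regular medium, and the lowest of them was in J1 DAXX-knockout. The log2 change was 1.80 ± 0.28 (SE), a fold of 3.47, with a limma adjusted p of 0.0350. The adjusted p ranged from 0.0196 to 0.124 over 14 alternatives and stayed under 0.05 in 8 of them, but in only 2 of the 8 that leave out a library: it was 0.0196 when J1 DAXX-knockout 2i was omitted and 0.0303 when TKO DAXX-knockout regular was. With any other library omitted it was 0.0760 to 0.124.

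The locus that fell lay at chr17:23816258-23819414, 4137 bp from a MERVL element. With DAXX intact it measured 15.2 FPKM for J1 and 14.8 for TKO in regular medium, and 10 and 4.97 in 2i. With DAXX knocked out it measured 42.4 for J1 and 22.7 for TKO in regular medium, and 14.1 and 5.87 in 2i. Each 2i value lay below that of its line in regular medium and also below the lowest of the 4 regular values. The log2 change was −1.32 ± 0.24 (SE), a fold of 0.401, with a limma adjusted p of 0.0454. The adjusted p ranged from 0.0389 to 0.133 over 14 alternatives and stayed under 0.05 in 6 of them, in none of the 8 that leave out a library, where it was 0.0516 to 0.133. Such a fit has 1 residual degree of freedom fewer than the 4 of the full one.

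Just outside the threshold were 2 long overlapping loci, named after their values were seen. The one at chrX:49625601-49967420 measured 8.51 FPKM for J1 and 9.72 for TKO in regular medium, and 28.8 and 30.7 in 2i. With DAXX knocked out it measured 14.8 for J1 and 40.8 for TKO in regular medium, and 34.3 and 60.9 in 2i. Its log2 change with 2i was 1.23 ± 0.27 (SE), with a limma adjusted p of 0.0597. The DAXX-knockout library was also the higher one in 4 of 4 pairs, with a log2 change of 0.98 and a limma adjusted p of 0.471. The one at chr14:102128846-102333350 had a log2 change of 0.83 ± 0.16 (SE) with DNMT knockout and a limma adjusted p of 0.0968.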

How the data were processed

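Libraries were made from cytoplasmic RNA captured on oligo-dT, with dUTP in the second strand, per the labels' protocols. The submitters' processing notes name TopHat, Bowtie2 2.2.4, Cufflinks, Cuffdiff and mm9, with no role or order. The authors deposited, for each library, FPKM of assembled loci with confidence bounds and no gene names, strand or exons. The repeat table held read counts and RPKM per element and library, per the file headers. Library totals were recovered from counts and RPKM, and element reads were divided by them to give RPM. How positions are counted (from 0 or 1) is not given, so gaps may be off by 1 bp.

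Loci were assigned to elements in Python 3.11.15 with pandas 2.3.3. Numbers and sums were compared over 4 pairs by exact sign-flip permutation tests (16 arrangements, two-sided). Loci were matched with bedtools 2.31.1 and tested with limma 3.58.1 (R 4.3.3, trended variance) on log2(FPKM + 1), with the other factors as covariates, after a filter of a mean of 1 FPKM. The limma step was checked on simulated data. Loci were named by an adjusted p under 0.05 with the same sign in 4 of 4 pairs, up to 10 each way. As a description, regions with the highest mean (up to 10 overlapping and 10 beside) or the widest range (up to 5 each) were drawn on. The members and lists were chosen with earlier results of these data known. No mm9 genome or annotation was used here, so sequences and genes are not given.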

Additional observations from a re-analysis of the deposited data

Results flagged for a closer look

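For 3 numbers the pairs with DAXX intact moved one way and the pairs with DAXX knocked out the opposite way. For DNMT knockout, the number of loci beside MERVL within 10 kb changed by factors of 1.37 and 1.18 with DAXX intact and of 0.855 and 0.823 with DAXX knocked out, in regular medium and 2i. The difference between the mean log2 ratios was 0.60. For 2i, the same number changed by factors of 0.773 in J1 and 0.669 in TKO with DAXX intact and of 1.06 and 1.02 with DAXX knocked out, a difference of −0.53. For DNMT knockout, the number within 5 kb changed by factors of 1.5 and 1.21 with DAXX intact and of 0.746 and 0.704 with DAXX knocked out, a difference of 0.90. These differences were not tested: each rests on 2 pairs against 2. The 3 numbers share libraries, and the loci within 5 kb are part of those within 10 kb.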

How the results depend on the processing

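Of 186 alternative values for the 15 numbers and sums, 155 kept their direction. This tally repeats values: leaving out either library of a pair drops the same pair and gives the same value. With loci of at least 1 FPKM, the log2 ratio for 2i became 0.065 for overlapping and 0.028 for beside loci, and that for DNMT became −0.016 for beside loci. An overlap of at least 500 bp gave 0.0088 for 2i. Within 2 kb, the DNMT value for the number beside became −0.27 and the summed FPKM beside 0.20 for DAXX and 0.50 for 2i. Within 20 kb, these sums became 0.14 and 0.59, and with loci of at least 300 bp that for DAXX became 0.12. As a share of all loci, the DNMT value beside became −0.011. As a share of low loci, the values within 5 kb became 0.45 for DAXX and 0.19 for DNMT. The causes were not tested. Leaving out each library in turn, the value for 2i ranged from −0.066 to 0.033 for overlapping loci, and from −0.27 to 0.015 for the summed FPKM beside. The DNMT value ranged from −0.089 to 0.16 for loci beside and from −0.22 to 0.15 within 5 kb. The DAXX value ranged from −0.056 to 0.16 for the summed FPKM overlapping and from −0.54 to 0.023 within 5 kb. For 2i within 5 kb the range was −0.70 to −0.38.

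The 2 loci called for 2i became 0 among overlapping loci alone, 0 within 2 kb and 0 on merged regions with 0 where no locus was assembled. Leaving out a library gave 0 to 2 calls: without the TKO DAXX-knockout library in regular medium there were 2, both higher, without the 2i library of J1 DAXX-knockout 1, and with any other left out 0. Over all loci the 149 calls for 2i became 220 with libraries centred, 192 without the variance trend and 0 to 444 with a library left out. Pairing the 2 media by line, with the line as a block, gave 3 calls near MERVL among 262. The division at 5 kb, the 300 bp limit and the shares of low loci were chosen after the data were seen. With 1 library per group, no number could reach a p under 0.13, and low FPKM carry no counts.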
